A study of Mus musculus with 6 samples.

Results

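Insulin and insulin-like growth factor 1 act on heart muscle through 2 receptors, 2 docking proteins and a lipid kinase that lie upstream of the kinase Akt. Transcripts of 8 genes of this route were followed in left ventricles with and without Akt2: the receptors Insr and Igf1r, the substrates Irs1 and Irs2, the phosphoinositide 3-kinase (PI3K) subunits Pik3r1, Pik3ca and Pik3cb, and the kinase Pdpk1. The members were all probe sets of the deposited table whose platform annotation names exactly 1 of these genes, 23 probe sets of the 34945 that name a single gene, and 8 of 18193 genes. A probe set is a group of short probes for 1 transcript, read as 1 signal. Hearts of 3 akt2-/- samples, which carry the targeted Akt2 disruption on both alleles, were set against those of 3 wild type samples. All were male, of the C57BL/6 strain and aged 12 to 16 weeks, and the disruption had been backcrossed more than 7 times. The labels name no promoter or cell type that limits the disruption, and nothing in them ties each sample to an animal of its own. The p-values here therefore reflect spread between samples, which may be technical, and in the main fit also the split of arrays described below. Each sample was hybridised to its own Affymetrix array, and the number of arrays limits the precision of every value below.

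As background, the insulin receptor and the insulin-like growth factor 1 receptor are tyrosine kinases that phosphorylate the substrates Irs1 and Irs2. These recruit the regulatory subunit p85, encoded by Pik3r1, which brings the catalytic subunits p110 alpha (Pik3ca) and p110 beta (Pik3cb) to the membrane. The lipid they make draws Akt and Pdpk1 together, and Pdpk1 phosphorylates Akt. In the heart this route drives glucose uptake by the transporter Glut4, and p110 alpha is known for its part in physiological growth. Among the known targets of FoxO transcription factors, which Akt keeps out of the nucleus, are Insr and Irs2.

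The deposited values were linear MAS5 signals, scaled to one trimmed mean on every array. Knockout 1 and wild type 1, called the replicate 1 arrays below, differed from the other 4 in a way that the labels do not mention. Probe sets for 18S ribosomal RNA, one of the array controls, read 57275 (median) in knockout 1 and 82330 in wild type 1, against 153 to 447 elsewhere. Median signals were 134.3 and 167.2 in these 2 arrays, against 88.4 to 91.2. Each genotype has 1 such array, so differences are given pooled, between the arrays numbered 1 (pair 1) and between the means of those numbered 2 and 3 (pairs 2 and 3). The targeted gene went with the labels: the brightest Akt2 probe set had signals of 477.8, 394.5 and 255.4 in the knockout, against 2362.6, 2561.3 and 2505.4 in the wild type. The brightest Akt1 probe set averaged 2284 ± 26.3 in the knockout and 2678 ± 35.2 in the wild type (SD, n = 3 each), with no overlap and a log2 difference of -0.23 (SE 0.156). Ventricular myocyte markers were bright in every array, with Myl2 between 56148.6 and 206482.8, and the hepatocyte markers Alb, Apoa1 and Ttr summed to 41.4 to 184.7 in the knockout and 70.5 to 313 in the wild type. Among markers of other cell types, all 4 of the atrial myocyte list had a higher log2 mean in the knockout. They summed to 16345.1 to 19949.2 there, against 15005.5 to 16687.4 in the wild type, and Nppa made up most of each sum. Myl7, Sln and Myl4 were lowest in wild type 2 among the wild type arrays. In knockout 3 these were below wild type 3, with Myl7 at 635.2 against 1246.3. Those of endothelial cells were lower in 6 of 6, with sums of 7884.4 to 9818.6 in the knockout and 8821.8 to 11013.1 in the wild type, and those of macrophages lower in 6 of 6. For the endothelial Pecam1, Tek and Vwf every knockout array lay below every wild type array, as in 3.66% of all tested probe sets. This held for 0 macrophage markers, and for Col3a1 of fibroblasts every knockout array lay above. No marker had a limma unadjusted p under 0.05 without a block. With the sample number as a block, Lyz2 of macrophages, lower in the knockout, had 0.0462 and Myh11 of smooth muscle, higher, had 0.0469, and the markers' part in the results below was not tested. In whole tissue, fewer cells of a type and less RNA per cell cannot be told apart.

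None of the 8 genes passed the test between the genotypes. Signals were compared as log2(signal + 21.7), a scale that understates differences of dim probe sets, and 20 of the 23 member probe sets passed the filter on dim probe sets, a mean of 6.868 on that scale, equal to a signal of about 95.1. In limma, 0 of these 20 had an adjusted p under 0.05, as had 0% of all 22519 tested probe sets. At an unadjusted p under 0.05 there was 1 member probe set, that of Irs2, against 2.01% of all (0.879% higher and 1.13% lower in the knockout). With the sample number as a block there was also 1, an Insr probe set, against 5.63%, and with the replicate 1 arrays as a block there were 2, those of Irs2 and Insr, against 7.77%. No member had an adjusted p under 0.05 in these blocked fits, against 0% and 0.00444% of all. Without a block the SE also holds the split between the replicate 1 arrays and the others. For Pik3ca 1423144_at it was 0.400, and 0.120 with those arrays as a block. For Insr 1450225_at it was 0.451 and 0.466. In 3 of the 20, those of Irs2 and a pair of Pik3r1 probe sets, every knockout array lay above every wild type array, against 3.64% of all tested probe sets, and in 0 did every knockout array lie below, against 3.66%. On either side the share over all was 7.3%. Of all 23 probe sets 17 were higher and 6 lower in the knockout, with a median log2 difference of 0.10, where the median over all 45037 probe sets without a filter was -0.02. The probe set of Irs2 and 2 of Insr passed the filter only through the knockout, where they are high, so counts over the 20 tested support no direction. Probe sets for the same gene share their RNA and are not independent.

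**Figure D1:**
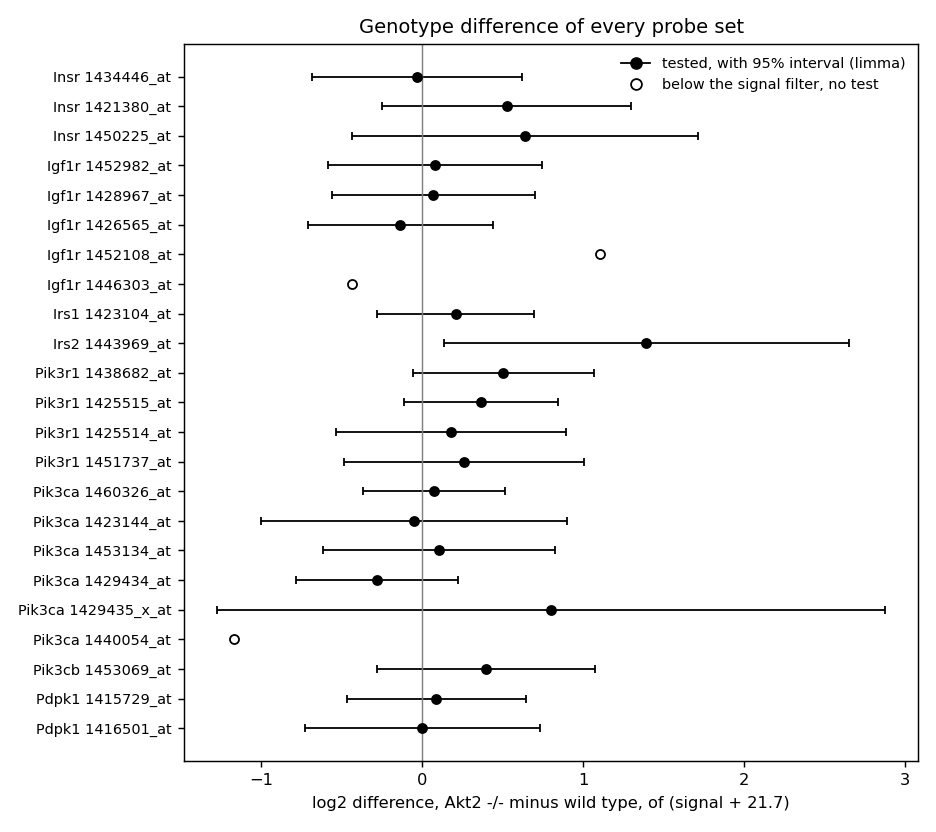
Log2 difference between the Akt2 knockout and the wild type for each of the 23 probe sets, on the scale of signal + 21.7. Filled points are tested probe sets with the 95% interval of limma, and open points lie below the signal filter and have no test. The interval of Irs2, 0.14 to 2.65, is the only one of the 20 that leaves out 0, and its adjusted p is 1.00. The probe set of Irs2 passed the filter only through the knockout, where it is high.

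No probe set of the receptors passed the test, and a dim one of Igf1r, not tested, had groups that did not overlap. The brightest probe set of Insr (1434446_at) had signals of 1804.9, 1001.5 and 1201.1 in knockouts 1, 2 and 3, against 1649.9, 1131.2 and 1242.7 in wild types 1, 2 and 3. The replicate 1 arrays were the highest of each genotype and the groups overlapped. The log2 difference was -0.03 (SE 0.275, 95% interval -0.69 to 0.62), with a limma adjusted p of 1.00. The 2 other Insr probe sets are much dimmer, both drawn from the reference transcript of the gene, and passed the filter through the knockout alone. One of them (1421380_at) had 193.8, 118.6 and 114.9 in the knockout, against 132.4, 98.2 and 53.4 in the wild type. Each knockout array was above the wild type array of the same number, and the groups overlapped. Its log2 difference was 0.52, with a limma unadjusted p of 0.152 without a block, 0.0306 with the sample number as a block and 0.0359 with the replicate 1 arrays as a block. The adjusted p values of those fits were 1.00, 0.83 and 0.63. The other (1450225_at) had 257.6, 115.8 and 82.2 in the knockout, against 40.9, 113.2 and 103.4 in the wild type. The log2 difference was 0.64 (SE 0.451), with 2.16 in pair 1 and -0.12 in pairs 2 and 3.

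Igf1r, the receptor that insulin-like growth factor 1 shares with high doses of insulin, was read by 5 probe sets. The brightest (1452982_at) had 510.1, 784 and 571.8 in the knockout, against 406, 705.8 and 668 in the wild type. Both replicate 1 arrays were the lowest of their genotype, and the log2 difference was 0.08 (SE 0.280, 95% interval -0.58 to 0.75). A probe set from the same transcript entry (1428967_at) gave 0.07 (SE 0.266), and 1426565_at gave -0.13 (SE 0.241). The remaining 2 were too dim to be tested. One of these (1452108_at) had 190.1, 89.2 and 107.6 in the knockout, against 23.2, 67.1 and 54.7 in the wild type, so that the groups did not overlap. Its log2 difference was 1.11, with 2.24 in pair 1 and 0.54 in pairs 2 and 3. Without the filter it had a limma unadjusted p of 0.0239, where 2.83% of all probe sets had one under 0.05, and an adjusted p of 1.00. It shares its transcript entry with 1426565_at, whose difference had the other sign. The last (1446303_at) had a log2 difference of -0.44, with 130.4, 39 and 44.4 in the knockout, against 163.1, 74.1 and 63.8 in the wild type.

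Of the substrates, Irs2 had the largest difference among the 20 tested probe sets, and 1 knockout array had a large part in its size. Irs2 is read by 1 probe set (1443969_at), for which the annotation gives no transcript entry. Its signals were 515.7, 125.4 and 143.1 in knockouts 1, 2 and 3, against 43.2, 103.7 and 66.5 in wild types 1, 2 and 3. Knockout 1 stood far above the next array, wild type 1 was the lowest of all 6, and the groups did not overlap. The means were 261.4 ± 220 in the knockout and 71.1 ± 30.5 in the wild type (SD, n = 3 each). The probe set passed the filter through the knockout alone. The log2 difference was 1.39 (SE 0.528), with a limma unadjusted p of 0.0344 and an adjusted p of 1.00. With the sample number as a block the unadjusted p was 0.0576. The difference was 3.05 in pair 1 and 0.57 in pairs 2 and 3, and the pooled value was 0.80 without knockout 1. On the scale of signal + 100 it was 0.93. In pairs 2 and 3 alone the limma unadjusted p was 0.0395 and the adjusted p 0.52, where 9.31% of all tested probe sets had an unadjusted p under 0.05.

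Irs1, the other main substrate of striated muscle, had 2267.5, 1662.6 and 1958.6 in the knockout, against 1864.2, 1428.3 and 1783 in the wild type (1423104_at). Each knockout array was above the wild type array of its number, while the groups overlapped, with knockout 2 below wild type 3. The log2 difference was 0.21 (SE 0.205, 95% interval -0.28 to 0.70), close in size in pair 1 (0.28) and in pairs 2 and 3 (0.18), with a limma adjusted p of 1.00.

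The promoters of the 2 substrates are shown because Irs2 had the largest tested difference and because their sequences share a pair of motifs. In both, CACGTG, the E-box bound by basic helix-loop-helix factors such as the SREBPs, stands beside TGTTTTG, the core of an insulin response element of the kind that FoxO factors bind. The sequences are the 250 bases before the start site from RefSeq on GRCm38.p6, 5′ to 3′ on the gene's strand, with both motifs in capitals. Irs2 lies at chr8:11008930-11009179 on the minus strand and Irs1 at chr1:82291440-82291689 on the minus strand.
Irs2: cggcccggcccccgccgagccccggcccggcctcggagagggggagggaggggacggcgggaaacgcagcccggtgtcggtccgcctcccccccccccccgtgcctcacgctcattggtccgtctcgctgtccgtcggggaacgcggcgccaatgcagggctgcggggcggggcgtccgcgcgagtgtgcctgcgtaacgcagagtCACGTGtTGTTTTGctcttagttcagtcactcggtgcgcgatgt
Irs1: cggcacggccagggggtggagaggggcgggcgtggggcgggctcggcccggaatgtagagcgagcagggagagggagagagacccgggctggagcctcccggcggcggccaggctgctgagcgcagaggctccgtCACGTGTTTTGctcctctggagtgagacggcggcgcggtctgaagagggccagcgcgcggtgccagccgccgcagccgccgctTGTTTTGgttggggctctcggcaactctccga
In Irs2 the E-box begins 44 bases and TGTTTTG 37 bases before the start site, with 1 base between them. In Irs1 the E-box begins 115 bases before it and shares its last 2 bases with the first TGTTTTG, which begins at 111. The second copy begins at 32. On either strand, CACGTG was found in 6.02% and TGTTTTG in 5.56% of 32851 promoter windows of this length. Both motifs with starts within 20 bases of each other were found in 15 windows (0.0457%), those of Irs1 and Irs2 among them. This spacing was set after the sequences were seen. A further FoxO core, TGTTTAC, in 3.17% of all windows, was found in none of the 9 windows of the 7 members that the table holds, and none of the other 7 windows held either motif above. Such matches describe the letters of these windows only.

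Pik3r1, the p85 subunit that joins the substrates to the catalytic subunits, was higher in the knockout in the pooled means of all 4 of its probe sets, and none passed the test. The brightest (1438682_at) had 2429.1, 2694.9 and 2428.8 in the knockout, against 1700.2, 1369.3 and 2365.2 in the wild type. The groups did not overlap, though wild type 3 came close to the lowest knockout array. The log2 difference was 0.50 (SE 0.237, 95% interval -0.06 to 1.07), with 0.51 in pair 1 and 0.50 in pairs 2 and 3. Its limma adjusted p of 1.00 became 0.83 with the sample number as a block and 0.64 with a block for the replicate 1 arrays. The same-numbered pairs were unlike, with 0.97 in pair 2 and 0.038 in pair 3. This contrast depends on which arrays are matched. Across tested probe sets knockout 2 correlated about as well with wild type 3 (0.44) as with wild type 2 (0.45).

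A second probe set of Pik3r1 (1425515_at) also had no overlap, with 1256.9, 1480.4 and 1192.3 in the knockout, against 1154.6, 834.6 and 1061.1 in the wild type. Its log2 difference was 0.37 (SE 0.201), with 0.12 in pair 1 and 0.49 in pairs 2 and 3. The 2 dimmer ones come from the same transcript entry. Of these, 1425514_at had 943.6, 636.1 and 661.8 in the knockout, against 958.7, 488.2 and 574.4 in the wild type, and 1451737_at had 965.8, 517.6 and 512.8 in the knockout, against 685.6, 417.2 and 512.7 in the wild type. In both the replicate 1 arrays were the highest of each genotype, and the groups overlapped. Their log2 differences were 0.18 (SE 0.300) and 0.26 (SE 0.314).

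The catalytic subunit Pik3ca, p110 alpha, differed little by its brightest probe sets. The brightest (1460326_at) had 1433, 1350.1 and 1383.4 in the knockout, against 1135.4, 1545.4 and 1301.8 in the wild type. The knockout arrays lay inside the range of the wild type arrays, and the log2 difference was 0.07 (SE 0.185, 95% interval -0.36 to 0.51). That SE is the smallest of the 20 tested probe sets. Another probe set of the same transcript entry (1423144_at) had 460.9, 1037 and 891.3 in the knockout, against 487, 1007.4 and 968.7 in the wild type. Here the replicate 1 arrays were the lowest in both genotypes, and the genotype difference was -0.05 (SE 0.400).

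The other Pik3ca probe sets did not go one way. From a further transcript entry, 1453134_at gave 0.10 (SE 0.304), 1429434_at -0.28 (SE 0.213) and 1429435_x_at 0.80 (SE 0.872) on the log2 scale. The last carries the suffix with which Affymetrix marks probes that may also bind other transcripts. It had 208.6, 314.5 and 299.8 in the knockout, against 14.7, 304.1 and 374.4 in the wild type, so that the sign of its difference rests on wild type 1: it was 2.66 in pair 1, -0.13 in pairs 2 and 3, and -0.30 without wild type 1. The dim 1440054_at, not tested, had 7.9, 61.8 and 20.2 in the knockout, against 281.7, 38.6 and 42.2 in the wild type. There too wild type 1 stood alone, on the other side.

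Pik3cb, p110 beta, was read by 1 probe set (1453069_at), with 269.4, 167 and 139.1 in the knockout, against 101.2, 153.8 and 156.9 in the wild type. Knockout 1 was the highest array and wild type 1 the lowest, and the groups overlapped. The log2 difference was 0.40 (SE 0.285, 95% interval -0.28 to 1.08), with 1.24 in pair 1 and -0.02 in pairs 2 and 3, and the limma adjusted p was 1.00.

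Pdpk1, the kinase that phosphorylates Akt in its activation loop, differed little by both of its probe sets. Its brighter probe set (1415729_at) had 1589.5, 1359.6 and 1022.8 in the knockout, against 1449.9, 1210.8 and 1043.3 in the wild type, and the other (1416501_at) had 329.7, 512.4 and 576.5 in the knockout, against 316.4, 555.5 and 550.9 in the wild type. Arrays of the same number were close to each other in both. The log2 differences were 0.09 (SE 0.234, 95% interval -0.47 to 0.65) and 0.0023 (SE 0.308, 95% interval -0.73 to 0.73).

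**Figure D2:**
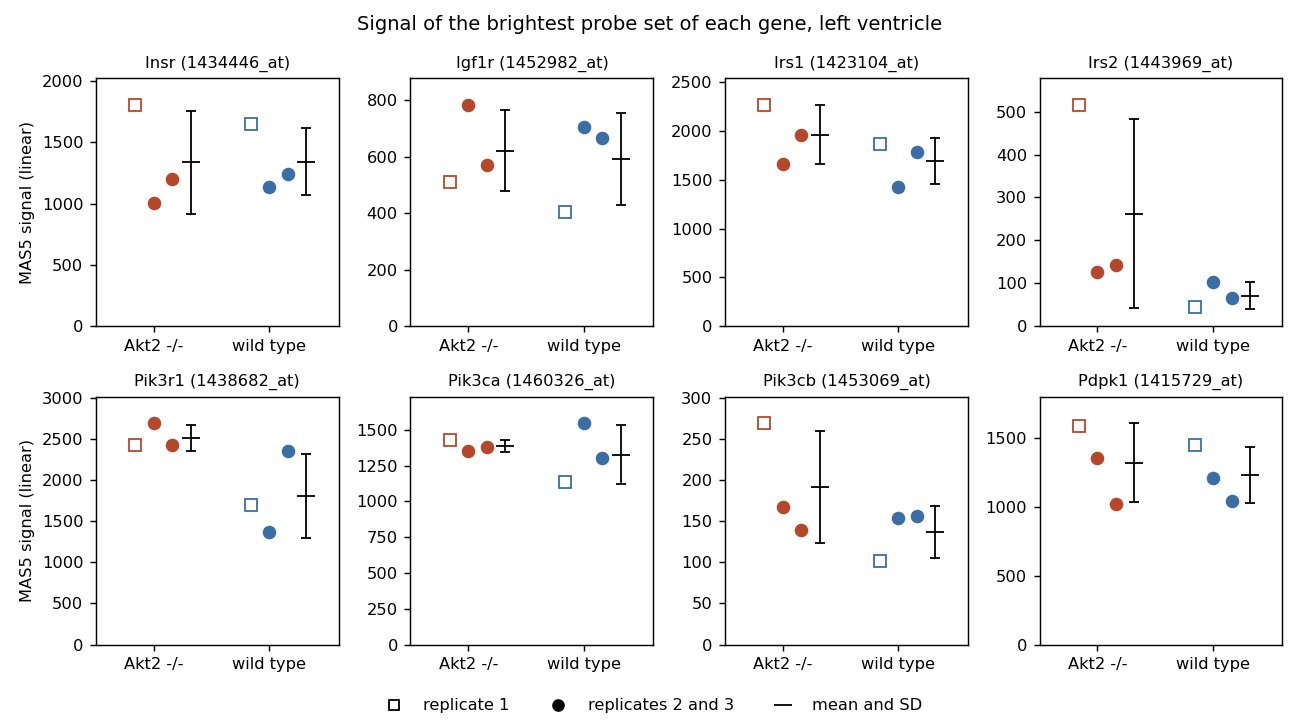
MAS5 signal of the brightest probe set of each of the 8 genes, with the 3 knockout arrays on the left and the 3 wild type arrays on the right of each panel. Open squares are the replicate 1 arrays, filled circles the other arrays, and bars the mean and SD. Only Irs2 and Pik3r1 have groups that do not overlap, with Irs2 at 515.7 in knockout 1 and Pik3r1 between 2428.8 and 2694.9 in all knockout arrays. Over all tested probe sets 7.3% had groups that did not overlap, on either side. The probe set of Irs2 passed the filter only through the knockout, where it is high.

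Differences of at least 2-fold were commoner in pair 1 than in pairs 2 and 3, among the members as among all tested probe sets. These 2 sets of arrays are unequal, with 1 array a genotype in pair 1. By the brightest probe sets, all 8 genes were higher in knockout 1 than in wild type 1, where 51.3% of all tested genes were, and 4 of 8 were higher in pairs 2 and 3, where 50.7% were. That of Irs2 passed the filter only through the knockout. With each array centred on its median, 8 of 8 stood against 76% of genes in pair 1. A difference of at least 2-fold in pair 1 was seen in 6 of all 23 probe sets, 5 higher and 1 lower in the knockout. Of the 20 tested these were 4, all higher, where 9.39% of all tested probe sets differed so far in either direction and 5.42% were higher. Those of Irs2 and Insr 1450225_at passed the filter only through the knockout, so nothing is read from this direction. In pairs 2 and 3 it was seen in 0 of 20, against 0.524%. The signs differed between the sets in 11 of 20, a share near the 50% of all tested probe sets.

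Whether the genotype difference itself differed between the sets was tested as an interaction in limma, whose spread comes from pairs 2 and 3, so that the replicate 1 arrays are taken to vary like them. Of the 20 probe sets 7 had an unadjusted p under 0.05, against 20.9% of all, and 1 had an adjusted p under 0.05, against 0.635%. This was Pik3ca 1429435_x_at, with 2.79 (adjusted p = 0.044), the probe set that wild type 1 decides. Irs2 had 2.48 (adjusted p = 0.0594) and Insr 1450225_at had 2.28 (adjusted p = 0.0545), which both missed the threshold. Both passed the filter only through the knockout, where knockout 1 was the highest array. Nothing is therefore read from them or from the count of 7, which holds both. For Pik3r1 1438682_at the interaction was 0.01 (adjusted p = 0.99).

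Levels also differed between the sets of arrays, for a share of the members near that of the whole array. In limma with genotype in the model, 6 of the 20 had an adjusted p under 0.05 between the replicate 1 arrays and the others, against 33.1% of all tested probe sets. Of these 3 were higher in the replicate 1 arrays, against 20% of all, and 3 lower, against 13.2%. Higher in the replicate 1 arrays were Insr 1434446_at by 0.59, Pik3r1 1425514_at by 0.68 and Pik3r1 1451737_at by 0.71 on the log2 scale. Lower were Pik3ca 1423144_at (-1.01), Pdpk1 1416501_at (-0.73) and Pik3ca 1453134_at (-0.64). In 13 of the 20 this difference was larger in size than that between the genotypes, as in 77.7% of all. Each of these 4 genes also had a probe set that did not pass.

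**Figure D3:**
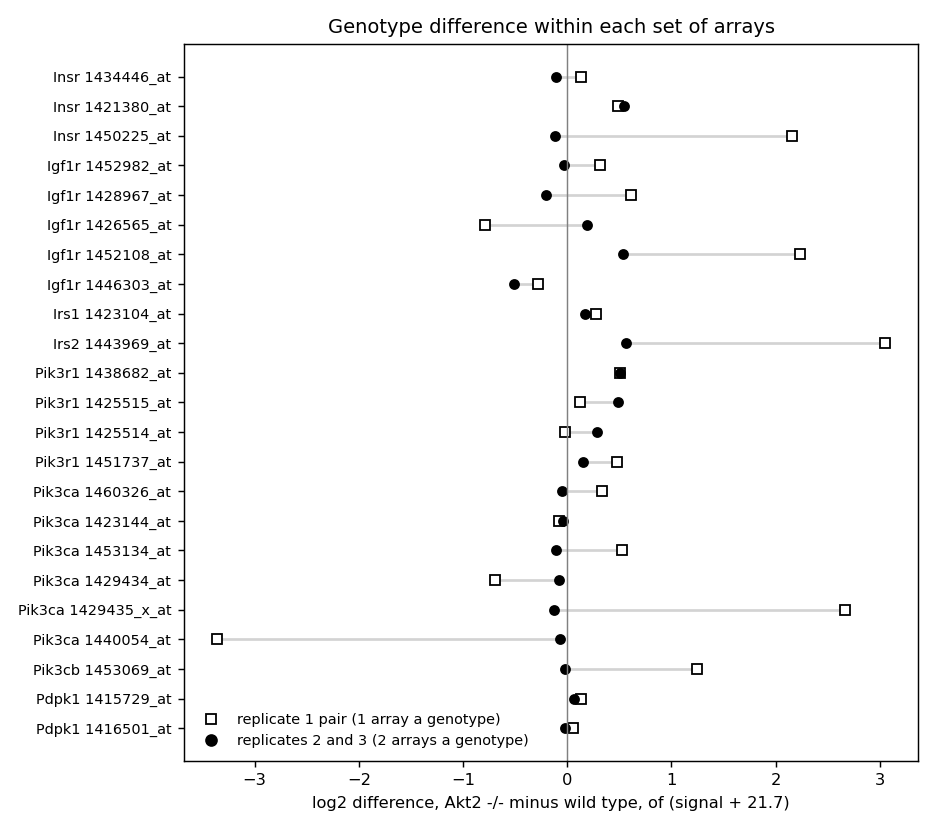
Log2 difference between knockout and wild type within pair 1 (open squares, 1 array a genotype) and within pairs 2 and 3 (filled circles, 2 arrays a genotype) for each of the 23 probe sets. The squares spread from -3.36 to 3.05 and the circles from -0.51 to 0.57. For Pik3r1 1438682_at the square and the circle, a mean of unlike pairs, coincide, and for Irs2 they lie at 3.05 and 0.57.

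The rest of the route was read from 5 lists, each gene by its brightest probe set, and none of their tested genes passed in either direction. The lists and the 8 genes were chosen with results of these data known. In the list of other PI3K subunits, 6 of 9 tested genes were higher and 3 lower in the knockout, with a median log2 difference of 0.07. Over all tested genes the median was 0.01 and 53.3% were higher, the share to set beside the counts of each of the 5 lists. Pik3cd, p110 delta, the catalytic subunit of leukocytes, had 345.5, 349.3 and 414.6 in the knockout, against 602.6, 591.9 and 465.9 in the wild type. All knockout arrays lay below all wild type arrays, and the log2 difference was -0.55 (SE 0.190), with -0.77 in pair 1 and -0.44 in pairs 2 and 3. Its limma unadjusted p was 0.0236 and its adjusted p 1.00. The macrophage markers beside it summed to 11434.8 to 21142.1 in the knockout and 15670.3 to 22511.3 in the wild type, and 0 of 6 were higher in the knockout, Lyz2 with an unadjusted p of 0.0462 in limma with the sample number as a block. Their part in the difference was not tested. Pik3r4, a subunit of the class III enzyme, had 0.48 (SE 0.240) and Pik3r3, another regulatory subunit, 0.43 (SE 0.231).

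Among other receptors, substrates and adaptors, 8 of 14 were higher and 6 lower, with a median of 0.01. Gab2, a docking protein, had 718.8, 759.9 and 681.3 in the knockout, against 921, 919.6 and 971.7 in the wild type, with no overlap. Its log2 difference was -0.37 (SE 0.161), with -0.35 in pair 1 and -0.38 in pairs 2 and 3, and its limma unadjusted p was 0.0552. It was 0.0402 with the sample number as a block, with an adjusted p of 0.83. Sos1, an exchange factor for Ras, had 0.46 (SE 0.288), and the adaptor Dok1 had 0.26 (SE 0.260). Among brakes on the receptor and substrates, 7 of 10 were higher and 3 lower, with a median of 0.04. Trib3, a pseudokinase that binds Akt, had -0.40 (SE 0.210), with a limma unadjusted p of 0.102 without a block, 0.04 with that block and an adjusted p of 0.83. Socs3, which blocks the receptor and the substrates, had -0.38 (SE 0.245), and Cul7, part of a ubiquitin ligase that acts on Irs1, 0.19 (SE 0.169).

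Of the phosphoinositide and Akt phosphatases 7 of 12 were higher and 5 lower, with a median of 0.01. Inpp4a had -0.23 (SE 0.205), Phlpp2, which dephosphorylates Akt, 0.23 (SE 0.212), and Ppp2r1a, the scaffold of protein phosphatase 2A, 0.15 (SE 0.164). Of the Akt isoforms and the mTOR and TSC complexes 4 of 13 were higher and 9 lower, with a median of -0.06. This list holds Akt2 itself (-2.69, SE 0.249, limma adjusted p 0.18). Rictor, which defines the complex that phosphorylates the tail of Akt, had 0.24 (SE 0.192).

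**Figure D4:**
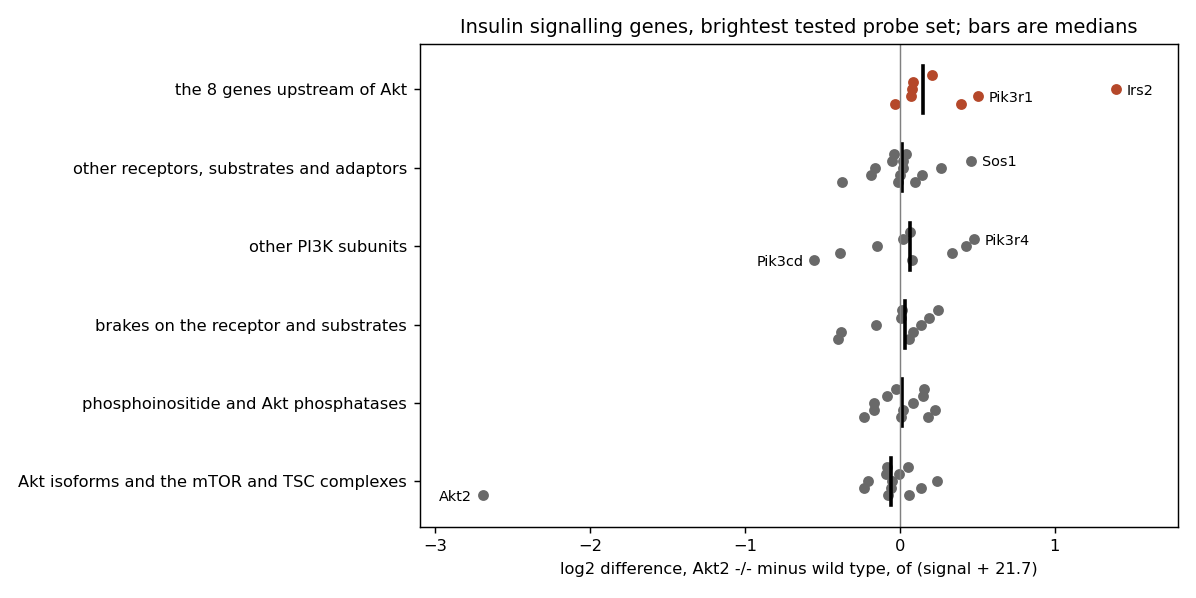
Log2 difference between knockout and wild type for the brightest tested probe set of each gene, with the 8 genes upstream of Akt in the top row and 5 lists of the same route below. Each point is a gene, black bars are medians, and genes beyond 0.45 in size are named. Irs2 lies at 1.39 and Akt2 at -2.69, and the medians lie between -0.06 and 0.15.

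Genes with the most similar course over the 6 arrays were found by the root mean square distance between log2 values centred on their mean, over 11075 tested genes. The nearest to Irs2 was Angptl7, at 0.37, with 314.8, 150.1 and 81.9 in the knockout, against 39.3, 127.2 and 57.3 in the wild type. Irs2 itself had a spread of 0.96 on this measure, against which that distance is large. The nearest to Pik3r1 was Rel, at 0.10, with 197.1, 215.1 and 169.4 in the knockout, against 113.2, 111.5 and 182.2 in the wild type. The nearest to the others were Micalcl for Insr (0.03), Birc6 for Igf1r (0.05), Uaca for Irs1 (0.05), Eid2 for Pik3ca (0.04), Baiap2 for Pik3cb (0.08) and Ern1 for Pdpk1 (0.06). The 6 arrays share the split by replicate 1, and the distances carry no test.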

How the data were processed

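Left ventricle RNA of 3 Akt2 knockout and 3 wild type samples was hybridised as biotin-labelled cRNA, per the labels. The deposited table holds linear intensities of 45101 probe sets, made with MAS5, per the submitters' processing notes. In the sources used here its version was not given. The deposited scaling, which gives all arrays one trimmed mean, was kept, and 64 control probe sets were not tested. The scale was log2(signal + 21.7), and this pseudocount is the 20th percentile of the signals. The 22519 probe sets with a mean at or above the median, 6.868, were tested in limma 3.58.1 (R 4.3.3; lmFit and eBayes, no covariate) with Benjamini-Hochberg adjustment over all of them and a threshold of 0.05. Errors of differences are the moderated SE, and intervals are 95% intervals.

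Gene names came from the platform annotation. All member probe sets are described, with Akt1 and Akt2 as a check, up to 3 genes of each list by lowest unadjusted p, and the nearest gene of each member. Members, lists, tests and alternatives were chosen with earlier results of these data known. Promoters came from a RefSeq table, which matched 7 of 8 members.

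Both genotypes have samples numbered 1 to 3 in the labels. After the genotype means were removed, arrays with the same number correlated at 0.61, 0.45 and 0.39 across tested probe sets, and the numbers were taken to pair the samples by a rule that asks for over 0.1 in each. Knockout 2 with wild type 3 (0.44) and knockout 3 with wild type 2 (0.36) correlated about as well, so the values set number 1 apart from 2 and 3 more than 2 from 3. A fit with the number as a block is given where it moves a result. As alternatives, the fit was repeated with each array left out, with other filters, pseudocounts, scalings, thresholds and variance models, with blocks for the sample number or the replicate 1 arrays, with replicates 2 and 3 alone, and with 1 probe set a gene. The test without a block was first tested on simulated data with known changes. At an adjusted p under 0.05 it recovered 13.1% of log2 changes of 1, 83.6% of those of 2 and 97% of those of 3. These shares hold for the simulated data only. On the arrays themselves the same test missed the targeted gene. The brightest Akt2 probe set had -2.69 with a limma adjusted p of 0.18. A dimmer Akt2 probe set had -3.63 with a limma adjusted p of 0.55. The shares are therefore not read as the chance of passing here. A probe set that did not pass is thus not shown to be unchanged.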

Additional observations from a re-analysis of the deposited data

Results flagged for a closer look

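For Pik3ca 1429435_x_at the test of a genotype difference that varies between the sets of arrays passed its threshold. The log2 difference in pair 1 exceeded that in pairs 2 and 3 by 2.79 (limma interaction, adjusted p = 0.044). The probe set had 208.6 in knockout 1 and 14.7 in wild type 1, and 314.5 and 299.8 in knockouts 2 and 3 against 304.1 and 374.4 in wild types 2 and 3. Pair 1 holds 1 array a genotype and has no spread of its own, so the test borrows that of the other arrays, and its result rests on the single value of wild type 1.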

How the results depend on the processing

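No member probe set had an adjusted p under 0.05 in any of the 18 other fits, nor at a threshold of 0.10. Over all tested probe sets the count past the threshold was 0, except 1 with the replicate 1 arrays as a block (batch block) and 13 with that block and a trended, robust variance. At an unadjusted p under 0.05 the count over all was 453, and 1267 with the replicate block, 1750 where the batch was the block, 1871 with that and the trended, robust variance, 2096 in pairs 2 and 3 alone, 1103 without wild type 1, 1276 without the filter, 194 with a stricter filter, 260 with arrays centred on their medians and 240 with 1 probe set a gene; that of the members stayed between 0 and 3. With the replicate block, 0 probe sets passed, and the pairing changed no call at the adjusted threshold. Irs2 and Insr 1450225_at passed the main filter only through the knockout, so nothing is read from the interaction counts of members that follow. Interaction tests under other settings were chosen after the data were seen. In these, 1 member passed with a pseudocount of 1, against 1.31% of all tested probe sets, 2 with a pseudocount of 100 (Irs2 and Pik3ca 1429435_x_at), against 0.875%, and 5 with quantile normalization, against 6.71%.

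Some signs turned. With arrays centred on their medians, which moved the median of all tested probe sets from 0.01 to 0.10, Insr 1434446_at was at 0.062 and Pik3ca 1423144_at at 0.042. In pairs 2 and 3 alone, 9 turned, among them 0.80, 0.64 and 0.40 in the pooled fit (Pik3ca 1429435_x_at, Insr 1450225_at and Pik3cb): Insr 1450225_at (-0.12), Igf1r 1452982_at (-0.035), Igf1r 1428967_at (-0.20), Igf1r 1426565_at (0.19), Pik3ca 1460326_at (-0.053), Pik3ca 1453134_at (-0.11), Pik3ca 1429435_x_at (-0.13), Pik3cb (-0.023) and Pdpk1 1416501_at (-0.024). Leaving out 1 array at a time, which leaves unequal shares of the replicate 1 arrays in the genotypes, gave ranges that crossed 0 for Insr 1434446_at (-0.27 to 0.15), Igf1r 1452982_at (-0.16 to 0.22), Igf1r 1428967_at (-0.20 to 0.25), Igf1r 1426565_at (-0.27 to 0.033), Pik3r1 1425514_at (-0.014 to 0.46), Pik3r1 1451737_at (-0.033 to 0.44), Pik3ca 1460326_at (-0.030 to 0.19), Pik3ca 1423144_at (-0.38 to 0.29), Pik3ca 1453134_at (-0.22 to 0.30), Pik3ca 1429435_x_at (-0.30 to 1.42), Pdpk1 1415729_at (-0.052 to 0.26) and Pdpk1 1416501_at (-0.25 to 0.23). Irs2 stayed between 0.80 (without knockout 1) and 1.73, and Pik3r1 1438682_at between 0.32 and 0.71. The cause of these shifts was not tested. Dim signals limit several probe sets: Irs2 was at 1.64 with a pseudocount of 1 and 0.93 with 100, and the untested Pik3ca 1440054_at at -1.78 and -0.61.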
